A study of Mus musculus with 4 samples.

Results

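The Skint genes encode a family of butyrophilin-like membrane proteins of mice, and 8 of them were found among the 10327 genes of a ribosome profiling table of newborn epidermal keratinocytes. Members were taken by name, as every listed gene whose GRCm38 symbol is Skint followed by a number, so no measured value entered the rule itself. The family was nonetheless put forward with its values known, because its levels differ strongly between libraries of the same group. All values below therefore describe the family, and the p-values given for its members support nothing further. The members are Skint1, Skint2, Skint3, Skint5, Skint6, Skint9, Skint10 and Skint11, and all 8 passed the filter on low values (1 CPM or more in at least 2 libraries), which removed no gene.

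Skint proteins carry immunoglobulin-like domains on the outside of the cell and several membrane-spanning segments. They are made mainly by skin keratinocytes and by the epithelium of the thymus. Skint1, the founding member, is known in mice for the selection of dendritic epidermal T cells, the gamma-delta T cells that settle in the epidermis before birth. The roles of the other members are less well defined.

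The 4 libraries formed 2 groups of 2, all of epidermal keratinocytes taken at postnatal day 0 without treatment. Control mice (Ctrl) had the genotype K14Cre,Mettl14F/+, which is a Cre transgene under the keratin 14 promoter of basal keratinocytes with 1 floxed and 1 unfloxed copy of Mettl14. Conditional knockout mice (cKO) had the genotype K14Cre,Mettl14F/F, in which both copies are floxed, so both groups carry the Cre and at least 1 floxed allele. The METTL14 protein forms, with its partner METTL3, the core of the enzyme complex that writes N6-methyladenosine on mRNA, and the comparison asks how its loss alters the footprints of ribosomes on mRNA. Whether libraries of 1 group stem from different mice is not stated in the labels, so their spread may be purely technical, and the strain background is not stated either.

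Each value is a gene's share of all sequenced footprints, given by the authors as CPM (reads per 1000000 reads of the listed genes). Whole reads could be recovered from these values, 933574 and 624167 in Ctrl 1 and Ctrl 2 and 542074 and 751948 in cKO 1 and cKO 2. Krt1 and Krt10, keratins of suprabasal cells, and Krt5 and Krt14, keratins of basal cells, together took 126285 to 185724 CPM per library, so the defining markers of the labelled cell type were present throughout. Mettl14, the targeted gene, had 26 and 17 reads in Ctrl 1 and Ctrl 2 against 5 and 4 in cKO 1 and cKO 2 (log2 change -1.83 ± 0.55, SE). It did not pass limma, a linear model fitted over all genes with Benjamini-Hochberg adjustment (adjusted p = 0.122). Footprints reflect both the amount of an mRNA and how densely ribosomes load it, and in such bulk samples fewer cells that make a protein cannot be told apart from fewer footprints per cell.

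The family lies in a single cluster on chromosome 4 of GRCm38, from 111919392 to 114245028, a span of 2.33 Mb that holds 11 annotated Skint genes. The 3 that do not appear among the listed genes, Skint4, Skint7 and Skint8, are not analysed here. In order along the chromosome the listed members are Skint1, Skint3, Skint9, Skint2, Skint10, Skint6, Skint5 and Skint11. Skint1 (ENSMUSG00000089773) spans 112006269 to 112029538 on the plus strand, Skint3 (ENSMUSG00000070868) 112232245 to 112300468 on the plus strand and Skint9 (ENSMUSG00000049972) 112385969 to 112433985 on the minus strand. Skint6 (ENSMUSG00000087194) and Skint5 (ENSMUSG00000078598) are the giants of the cluster, both on the minus strand, from 112804616 to 113286973 and from 113477891 to 113999503. Their coding sequences of 3720 and 4425 bases compare with 957 to 1374 bases in the other 6. No listed Skint gene shares exonic bases with another annotated gene except Skint6, whose exons overlap those of Gm12823.

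Because the members are paralogs, a short footprint can match more than 1 of them, which bears on every value below. Of the 28 pairs of listed members, 9 shared at least 1 stretch of 28 bases, a length inside the 25 to 35 nt range selected on the gel. The pair with the longest shared stretches was Skint6 and Skint5, whose coding sequences were 88.5% identical over the aligned bases. A footprint lying wholly inside 1 of the following 28-base windows, each the start of the longest stretch shared by a pair, could not be assigned to a single gene from its sequence.
Skint6 from base 535 and Skint5 from base 577, counted from the first base of the longest coding sequence: agcaaaggagagtacattccagctacat
Skint3 from base 214 and Skint2 from base 205: cctgtgtacctgtacaggaatggtaaag
Skint2 from base 471 and Skint6 from base 480: gttggagtgtcattcaggaggttggttc
The shared stretches that open with these windows ran to 98, 68 and 39 bases. Most of each coding sequence was nonetheless distinct. The share of 28-base windows found in no other gene's coding sequence was 86.2% for Skint6 and 88.4% for Skint5, 93.3% for Skint2 and 95.0% for Skint3, and between 96.5% (Skint10) and 99.1% (Skint1) for the remaining 4. When untranslated and noncoding transcripts of other genes were searched as well, the share was 83.9% for Skint2 and 79.0% for Skint11. How the authors' counting treated reads with several matches is not given in the sources used here, so part of a member's reads may be missing or may belong to a paralog, and the shared part was largest for Skint6, Skint5, Skint2 and Skint11.

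Summed over the 8 members, Skint footprints were scarce in Ctrl 1 and abundant in the other 3 libraries. The sum was 231 reads or 247 CPM in Ctrl 1 (95% exact Poisson interval 217 to 281), 814 reads or 1304 CPM in Ctrl 2 (1216 to 1397), 456 reads or 841 CPM in cKO 1 (766 to 922) and 1142 reads or 1519 CPM in cKO 2 (1432 to 1609). These and all later intervals cover counting error only, and PCR copies make reads less than independent. The controls therefore bracketed cKO 1, with Ctrl 1 below and Ctrl 2 above it, and the groups overlapped. Ctrl 2 exceeded Ctrl 1 by 5.27-fold and cKO 2 exceeded cKO 1 by 1.81-fold, against a ratio of mean cKO to mean Ctrl of 1.52. That ratio was 0.905 without Ctrl 1 and 4.77 without Ctrl 2, so a single control library set whether the family stood higher or lower in cKO.

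**Figure D1:**
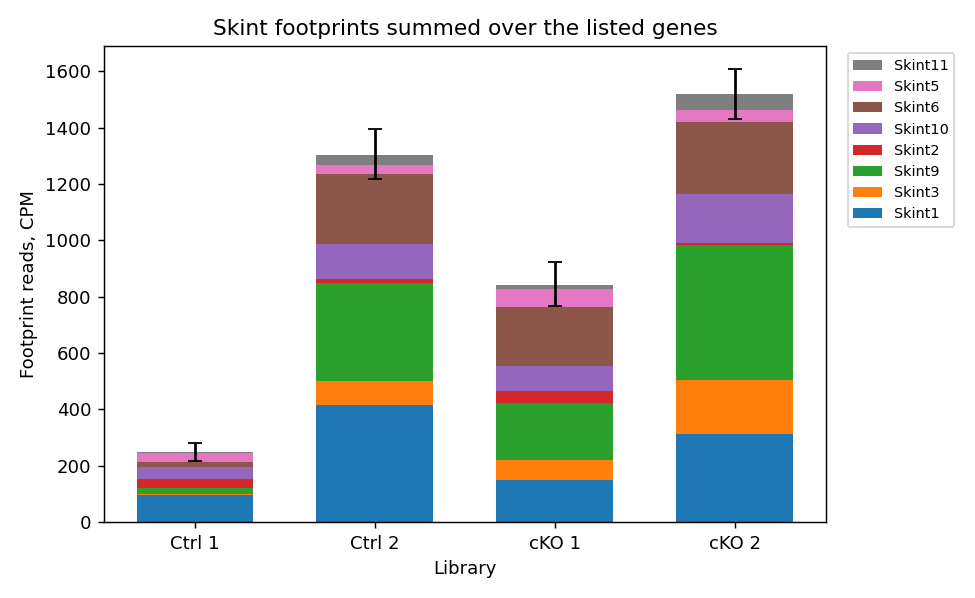
Stacked CPM of the 8 listed Skint genes (y axis) in each of the 4 libraries (x axis), with bars split by gene and black lines giving the 95% exact Poisson interval of the sum. Ctrl 1 reaches 247 CPM, while Ctrl 2 reaches 1304 and cKO 2 reaches 1519.

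The gap between the controls was not shared evenly by the family. Skint3, Skint6, Skint9 and Skint11 together had 43.9 CPM in Ctrl 1 and 715 CPM in Ctrl 2, a ratio of 16.3, and 500 and 981 CPM in cKO 1 and cKO 2. The other 4 members together had 204 and 590 CPM in Ctrl 1 and Ctrl 2 and 341 and 537 CPM in cKO 1 and cKO 2, a ratio of 2.90 between the controls. The first 4 genes were grouped after their values were seen, as the members with a ratio above 8 (the lowest inside this limit was Skint6 at 14.4 and the highest outside it Skint1 at 4.32), so the split is a description. Their share of the Skint reads was 17.7% for Ctrl 1 and 54.8% for Ctrl 2, a difference that the choice of the genes by this ratio builds in, and 59.4% for cKO 1 and 64.6% for cKO 2.

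Skint1, the member tied to T cell selection, had the most reads of the family in both controls. It had 90 reads or 96.4 CPM in Ctrl 1, 260 reads or 417 CPM in Ctrl 2, 81 reads or 149 CPM in cKO 1 and 236 reads or 314 CPM in cKO 2. Both cKO libraries thus lay between the controls, and the replicates numbered 2 were high in both groups. Ctrl 2 stood 4.32-fold above Ctrl 1 (95% exact interval 3.39 to 5.55) and cKO 2 stood 2.10-fold above cKO 1 (1.63 to 2.74). The log2 change of 0.11 ± 0.42 (SE, on the log2(CPM + 1) scale) did not pass limma over all genes (adjusted p = 0.931). Without Ctrl 1 it was -0.94 and without Ctrl 2 it was 1.16, so its direction followed the control library chosen.

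Skint9 carried the most footprints of the family in cKO 2. It had 20 reads or 21.4 CPM in Ctrl 1 against 217 reads or 348 CPM in Ctrl 2, and 111 reads or 205 CPM in cKO 1 against 360 reads or 479 CPM in cKO 2. Ctrl 1 alone was low, and the remaining libraries lay within a 2.34-fold range. The ratio between the controls was 16.2 (95% exact interval 10.3 to 27.1). The limma log2 change was 1.83 ± 0.66 (SE; adjusted p = 0.200), and -0.15 without Ctrl 1.

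Skint6, which shares 492 of the 28-base windows of its long coding sequence with Skint5, was also low in Ctrl 1. It had 16 reads or 17.1 CPM in Ctrl 1, 154 reads or 247 CPM in Ctrl 2, 114 reads or 210 CPM in cKO 1 and 192 reads or 255 CPM in cKO 2. Apart from Ctrl 1 the libraries were nearly level, with cKO 2 over cKO 1 at 1.21 (95% exact interval 0.958 to 1.54) and cKO 2 over Ctrl 2 at 1.03 (0.833 to 1.29). The log2 change of 1.80 ± 0.62 (SE; limma adjusted p = 0.176) became -0.090 without Ctrl 1.

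Skint3 had the highest ratio of Ctrl 2 to Ctrl 1 in the whole table. It had 3 reads or 3.21 CPM in Ctrl 1, 52 reads or 83.3 CPM in Ctrl 2, 38 reads or 70.1 CPM in cKO 1 and 143 reads or 190 CPM in cKO 2. Ctrl 2 over Ctrl 1 came to 25.9 (95% exact interval 8.39 to 130, on 3 reads in Ctrl 1), and cKO 2 was also above Ctrl 2, by 2.28-fold (1.65 to 3.20), while cKO 1 stood at 0.841 of Ctrl 2 (0.539 to 1.30). Its log2 change of 2.63 ± 0.76 (SE; limma adjusted p = 0.117) was 0.47 without Ctrl 1, a value that kept its sign.

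Skint11 was the rarest of these genes, with 2 reads or 2.14 CPM in Ctrl 1, 23 reads or 36.8 CPM in Ctrl 2, 8 reads or 14.8 CPM in cKO 1 and 43 reads or 57.2 CPM in cKO 2. Replicate 2 was high in both groups, with a ratio of 17.2 between the controls (95% exact interval 4.25 to 151, on 2 reads in Ctrl 1) and of 3.87 between the cKO libraries (1.80 to 9.54). The log2 change was 1.47 ± 0.79 (SE; limma adjusted p = 0.403) and -0.32 without Ctrl 1. Skint10, at 45.0 and 127 CPM in Ctrl 1 and Ctrl 2 and 88.5 and 173 CPM in cKO 1 and cKO 2, followed the same order of libraries with smaller steps. Its log2 change of 0.70 ± 0.37 (SE; adjusted p = 0.394) became -0.032 without Ctrl 1.

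Skint1 departed from this order only in that Ctrl 2 stood above cKO 2, while Skint2 and Skint5 did not follow it. Skint2 had 29 reads or 31.1 CPM in Ctrl 1, 9 reads or 14.4 CPM in Ctrl 2, 22 reads or 40.6 CPM in cKO 1 and 6 reads or 7.98 CPM in cKO 2. Both replicates numbered 1 were thus above both replicates numbered 2, the reverse of Skint1. The ratio of Ctrl 2 to Ctrl 1 was 0.464 (95% exact interval 0.193 to 1.01) and that of cKO 2 to cKO 1 was 0.197 (0.0652 to 0.50), and only the second interval excludes 1. Its limma log2 change was -0.20 ± 0.60 (SE; adjusted p = 0.908). Skint2 and Skint3 shared the longest common stretch outside the pair of giants. The cKO 2 library was the highest for Skint3 and the lowest for Skint2, and whether shared reads entered these values was not tested.

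Skint5 was level between the controls, with 29 reads or 31.1 CPM in Ctrl 1 and 20 reads or 32.0 CPM in Ctrl 2, and had 34 reads or 62.7 CPM in cKO 1 and 32 reads or 42.6 CPM in cKO 2. It was the 1 member whose cKO libraries both lay above both Ctrl libraries, an ordering found for 11.1% of all genes, and no member had both cKO libraries below, against 34.1% of all genes. For Skint5, cKO 1 over Ctrl 1 and over Ctrl 2 was 2.02 (95% exact interval 1.19 to 3.44) and 1.96 (1.09 to 3.59). With cKO 2 these ratios were 1.37 (0.803 to 2.35) and 1.33 (0.737 to 2.45), and both of these intervals include 1. Mean CPM, ± SD over n = 2 libraries, was 31.6 ± 0.69 for Ctrl against 52.6 ± 14.3 for cKO, and the log2 change was 0.69 ± 0.36 (SE; limma adjusted p = 0.392). With 1 library left out in turn it ran from 0.42 to 0.97. Skint5 is also the member that shares most sequence with Skint6. Ctrl 2 over Ctrl 1 was 1.03 (95% exact interval 0.553 to 1.89) for Skint5 and 14.4 (8.59 to 25.8) for Skint6. Whether reads shared by the pair entered these values was not tested.

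**Figure D2:**
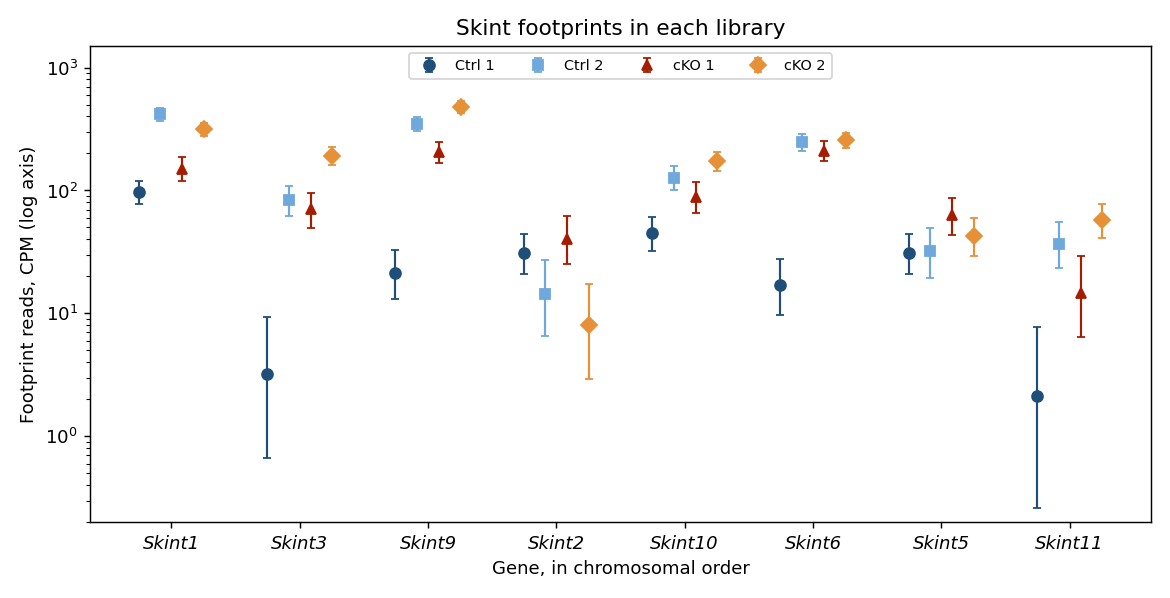
CPM of each listed Skint gene (log y axis) in Ctrl 1, Ctrl 2, cKO 1 and cKO 2, with genes in chromosomal order on the x axis and vertical lines giving 95% exact Poisson intervals. Ctrl 1 is the lowest library for every gene but Skint2, and falls to 3.21 CPM for Skint3 and 2.14 CPM for Skint11.

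The sequence upstream of Skint6 and Skint5 was closely similar as well. Of the 250 bases before the RefSeq start of each (GRCm38.p6, minus strand, chr4:113286974-113287223 for Skint6 and chr4:113999504-113999753 for Skint5), 222 were identical. They are shown here 5′ to 3′ with the 28 differing bases in capitals, because this pair has the most similar upstream sequence of all listed members. Any link to the pair's ratios between the controls was not tested.
Skint6: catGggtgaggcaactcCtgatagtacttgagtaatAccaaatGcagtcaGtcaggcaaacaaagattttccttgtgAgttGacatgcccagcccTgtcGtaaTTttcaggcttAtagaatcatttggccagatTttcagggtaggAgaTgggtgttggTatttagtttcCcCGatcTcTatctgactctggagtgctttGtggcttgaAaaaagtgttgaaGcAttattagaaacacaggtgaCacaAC
Skint5: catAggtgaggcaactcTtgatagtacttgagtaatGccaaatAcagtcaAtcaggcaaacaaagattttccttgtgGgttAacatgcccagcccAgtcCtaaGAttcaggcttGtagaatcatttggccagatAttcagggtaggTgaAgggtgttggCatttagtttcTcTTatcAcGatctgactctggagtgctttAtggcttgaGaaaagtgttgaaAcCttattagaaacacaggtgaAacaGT
The sequences are those of the reference genome, and the mice's own sequence is not analysed here. Upstream sequences were found in the RefSeq table for all 8 members. They held 34.0 to 42.8% G and C, against a median of 52.4% over 32851 promoters of the same length.

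Set against all genes, the gap between the controls placed 4 members near the top of the table. The family was put forward because of such gaps, so this place and the shares below are only a description. The gaps of Skint3 and Skint11 rest on 3 and 2 reads in Ctrl 1. Ctrl 2 exceeded Ctrl 1 by over 8-fold for 46 of 10327 genes (0.445%), and 4 of the 8 Skint genes were among them, at ranks 1 (Skint3), 4 (Skint11), 5 (Skint9) and 9 (Skint6). Above 4-fold there were 5 members, with Skint1, against 1.93% of all genes. Between the cKO libraries no member differed by over 4-fold in this direction, as 1.73% of genes did. Ctrl 1 was the lowest library for 7 members, against 19.3% of all genes. The median ratio of Ctrl 2 to Ctrl 1 was 9.36 over the members and 1.06 over all genes, and that of cKO 2 to cKO 1 was 2.03 and 0.991. Ctrl 2 was above Ctrl 1 for 7 members (54.2% of all genes) and cKO 2 was above cKO 1 for 6 (49.2%), and no label ties equally numbered samples together.

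**Figure D3:**
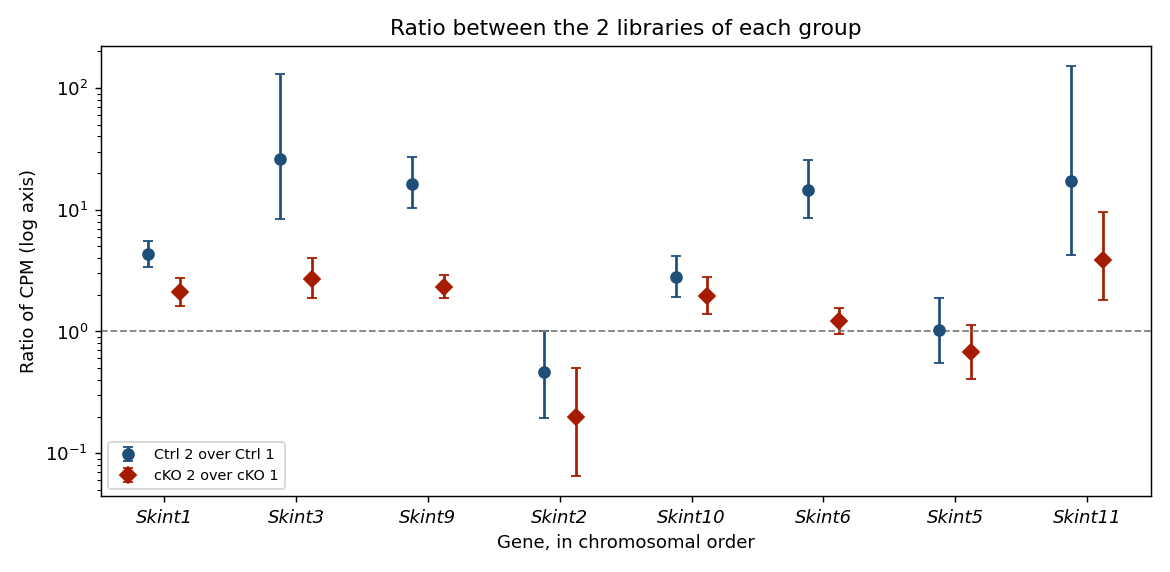
Ratio of CPM in replicate 2 to replicate 1 (log y axis) within Ctrl (circles) and within cKO (diamonds) for each Skint gene in chromosomal order, with 95% exact intervals and a dashed line at 1. Ratios between the controls exceed 14 for Skint3, Skint9, Skint6 and Skint11, while Skint5 lies at 1.03 and Skint2 at 0.464.

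Pair by pair, the direction of cKO against Ctrl depended on the control. All 8 members were higher in cKO 1 than in Ctrl 1 (37.8% of all genes were) and 7 were higher in cKO 2 than in Ctrl 1 (38.1%). Against Ctrl 2, 6 members were higher in cKO 2 (32.7% of all genes), and 2, Skint2 and Skint5, were higher in cKO 1 (36.2%). These comparisons share libraries and are given side by side only. In the fit over all genes, limma called 0 of 8 members at an adjusted p under 0.05, against 0.668% of all genes, and 3 had an unadjusted p under 0.05, as 14.3% of all genes did. On the recovered reads edgeR called 0 with either scaling tried, and so did DESeq2, which gave no adjusted p for 3 of them. The members' median log2 change was 1.09, beside -0.245 over all genes. Without Ctrl 1 the log2 change turned negative for Skint1, Skint6, Skint9, Skint10 and Skint11. It was then 0.47 for Skint3, 0.33 for Skint2 and, nearly unchanged, 0.67 for Skint5.

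Levels of different members can be set side by side per kb of coding sequence, and on that scale Skint1 and Skint9 were the highest members in Ctrl 2, cKO 1 and cKO 2, and Skint1 and Skint10 in Ctrl 1. In CPM per kb, Skint1 had 88.3 and 381 in Ctrl 1 and Ctrl 2 and 137 and 287 in cKO 1 and cKO 2, and Skint9 had 22.4, 363, 214 and 500 in the same order. In Ctrl 2 the 95% exact Poisson intervals of this pair overlapped (336 to 431 and 317 to 415), and in the other libraries they did not. Skint10 had 42.4, 119, 83.4 and 163, above Skint9 in Ctrl 1, where their intervals overlapped, and below Skint1 and Skint9 in the other libraries, and Skint6, despite its many reads, had 4.61, 66.3, 56.5 and 68.6. Skint3 was close to Skint6 in Ctrl 2 (60.6) and cKO 1 (51.0), where their intervals overlapped, and above it in cKO 2 (138). Skint5 was low throughout, from 7.02 in Ctrl 1 to 14.2 in cKO 1. Skint11 had 1.96, 33.7, 13.5 and 52.4, and Skint2 had 25.9, 12, 33.8 and 6.65. Skint1 ranked first in both Ctrl libraries and Skint9 ranked first in both cKO libraries.

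Skint reads were also compared with keratin reads of the same library, a ratio that does not depend on scaling between libraries. Per 1000 reads of Krt1 and Krt10, there were 1.98 and 11.7 Skint reads in Ctrl 1 and Ctrl 2 and 4.70 and 9.26 in cKO 1 and cKO 2, so both cKO libraries again lay between the controls. Per 1000 reads of Krt5 and Krt14 there were 14.2, 85.7, 122 and 174, and here both cKO libraries lay above both controls. The denominators themselves moved, since Krt5 fell in cKO (log2 change -1.26 ± 0.27, SE; limma adjusted p = 0.0293) and Krt1 had a log2 change of 0.51 that did not pass. Krt1 and Krt10 reads per read of Krt5 and Krt14 were 7.14 in Ctrl 1 and 7.29 in Ctrl 2, but 26.0 in cKO 1 and 18.8 in cKO 2. The controls therefore had nearly the same ratio of these summed keratins, and their summed Skint CPM differed by 5.27-fold. The sums hide opposite shifts between Ctrl 1 and Ctrl 2, with Krt5 at 14751 and 11531 CPM and Krt14 at 2716 and 3695 CPM. In cKO 1 and cKO 2, Krt14 had 1301 and 3398 CPM. A link between these values was not tested.

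**Figure D4:**
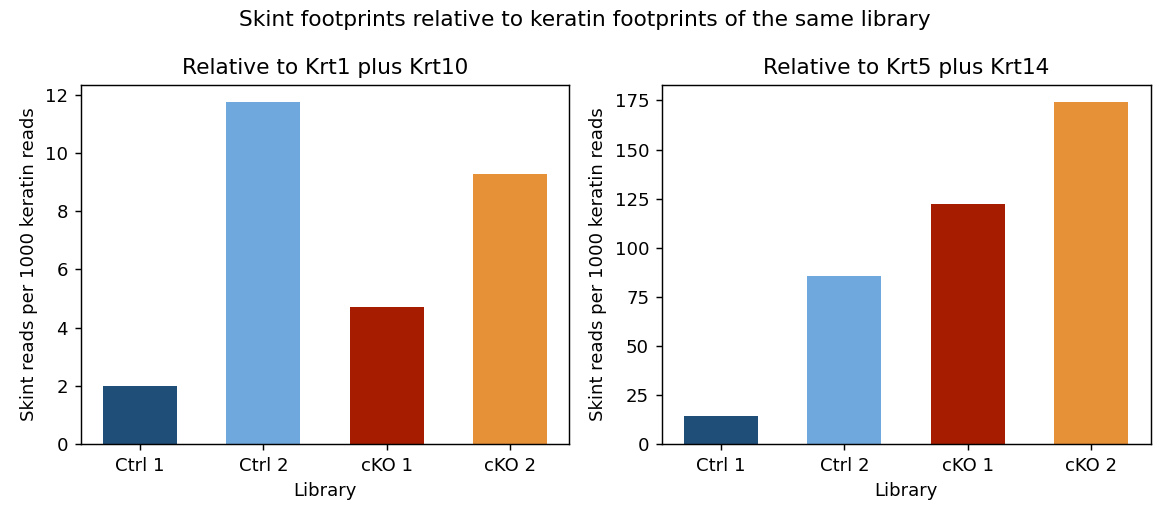
Skint reads per 1000 reads of Krt1 plus Krt10 (left panel) and per 1000 reads of Krt5 plus Krt14 (right panel) in each library. On the left the controls, at 1.98 and 11.7, enclose both cKO libraries, and on the right the cKO libraries, at 122 and 174, stand above both controls.

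Marker lists of other cells and layers are given beside this gap, and their part in it was not tested. Spinous markers (13 of 13 listed) summed to 155855 CPM in Ctrl 1 and 140940 CPM in Ctrl 2, and to 223569 and 209774 CPM in cKO 1 and cKO 2. Of these, limma called 0 (6 at an unadjusted p under 0.05), edgeR with TMM 5 and DESeq2 6. Over all genes these shares were 14.3% at an unadjusted p, 1.7% by edgeR with TMM and 2.79% by DESeq2 of the 3119 genes to which it gave an adjusted p. Granular and cornified markers (21 of 21 listed) summed to 12782 and 17417 CPM in the controls and 22844 and 31779 CPM in the cKO libraries. Of them 7 rose by limma (0.368% of all genes did), among them Spink5, a protease inhibitor, and Sprr1b, an envelope precursor. Of the 13 basal markers 2 fell (0.3% of all genes did), Krt5 and Bcam, a laminin receptor, though 0 after median centring and 1 without Ctrl 1. The granular count was 3 without Ctrl 1, 12 without Ctrl 2 and 17 by edgeR with TMM. Without cKO 1 or without cKO 2 limma called 0 genes in all. The summed keratinocyte lists had Ctrl 2 over Ctrl 1 at 0.904 for spinous, 1.36 for granular and 0.895 for basal markers. In the same order, cKO 2 over cKO 1 was 0.938, 1.39 and 1.12. Such sums follow their most abundant genes, as Krt1 and Krt10 together had 124768 CPM of the spinous sum in Ctrl 1. Most single granular genes were higher in Ctrl 2 than in Ctrl 1, among them Cdsn, at 322 CPM in Ctrl 1 and 747 CPM in Ctrl 2. Tgm1, Tgm3, Alox12b, Aloxe3 and Sprr2d were lower in Ctrl 2, with Tgm3 at 389 CPM in Ctrl 1 and 364 CPM in Ctrl 2.

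Among other cell types, 10 of 11 fibroblast markers were listed. By limma 3 of them fell (0.3% of all genes did), among them Dcn and Sparc of the extracellular matrix. An unadjusted limma p under 0.05 was found for 7 of them, while edgeR with TMM called 3 and DESeq2 called 2. The fibroblast sum was highest in Ctrl 1, at 4641 CPM against 2929 CPM in Ctrl 2, 2131 in cKO 1 and 1383 in cKO 2. The sum hides uneven gaps, since Col1a1, a collagen gene, had 397 CPM in Ctrl 1 against 25.6, 40.6 and 35.9 CPM in Ctrl 2, cKO 1 and cKO 2. Dcn had 698 and 519 CPM in Ctrl 1 and Ctrl 2. Pdgfra alone was lower in Ctrl 1 than in Ctrl 2, at 11.8 against 16.0 CPM. Melanocyte markers (8 of 8 listed, with Dct and Pmel of pigment synthesis the most abundant) were lowest in Ctrl 1, at 844 CPM against 1511, 1024 and 1004. Langerhans and myeloid markers (11 of 13) ran from 664 CPM in cKO 2 to 1126 CPM in Ctrl 2, led by Epcam and Cd74. Epcam alone had 326, 360, 389 and 283 CPM in Ctrl 1, Ctrl 2, cKO 1 and cKO 2. Cd207 and Lyz2 of this list are not among the listed genes. Hair follicle markers (11 of 12; Lef1, a Wnt pathway factor, fell, but not by edgeR with TMM or DESeq2, after median centring or with any 1 library left out) had 2489 and 2841 CPM in Ctrl 1 and Ctrl 2 and 1492 and 1842 CPM in cKO 1 and cKO 2. Red blood cell markers (6 of 9, led by Hba-a1 and Hba-a2) were highest in cKO 1, at 528 CPM against 81.7 to 121 CPM elsewhere. Of the melanocyte, Langerhans and red blood cell lists limma called 0 genes (0, 0 and 2 at an unadjusted p under 0.05), while edgeR with TMM called 0, 0 and 2 and DESeq2 called 0. None of the 7 endothelial markers is among the listed genes.

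The cells and signals that the family is known to serve were examined next. Dendritic epidermal T cell markers were sparse, with 10 of 23 listed, and summed to 111 and 231 CPM in Ctrl 1 and Ctrl 2 and to 137 and 121 CPM in cKO 1 and cKO 2. Ptprc, the pan-leukocyte phosphatase, and Itgae, the integrin chain that binds E-cadherin, were the most abundant of them. Itgae had 8 and 32 reads in Ctrl 1 and Ctrl 2 and 3 and 19 reads in cKO 1 and cKO 2, and so was high in both replicates numbered 2. Ptprc had 75.0 and 104 CPM in Ctrl 1 and Ctrl 2 but 88.5 and 55.9 CPM in cKO 1 and cKO 2. Between the cKO libraries the markers of this list thus went either way. Trdc, the constant region of the delta chain, had 1, 8, 2 and 5 reads, too few to order the libraries. Cd3d, Cd3g and the gamma chain genes of the list are not among the listed genes. No T cell marker passed limma (0 at an unadjusted p under 0.05) or edgeR or DESeq2. Of 19 keratinocyte ligands and cytokines that act on these T cells, 11 were listed and limma called 0 (4 at an unadjusted p under 0.05, beside 14.3% of all genes), edgeR with TMM 1 and DESeq2 0. Cdh1, which is E-cadherin, and Plxnb2, a plexin receptor, had log2 changes of 0.18 and -0.033. None of 10 other butyrophilin family genes is among the listed genes.

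The nearest listed genes on either side of the cluster were compared with it, although 8 of the 10 lay 714 to 2475 kb away. No other protein-coding gene is annotated inside it, and none of the 14 noncoding genes and pseudogenes annotated there is listed. The 5 nearest listed protein-coding genes on each side had ratios of Ctrl 2 to Ctrl 1 from 0.374 (Ttc39a, on 4 and 1 reads) to 3.81 (Slc5a9, a sugar transporter 16.5 kb before the cluster, with 11, 28, 19 and 21 reads in Ctrl 1, Ctrl 2, cKO 1 and cKO 2). The ratio of Slc5a9 was below those of Skint1, Skint3, Skint6, Skint9 and Skint11 and above those of Skint10, Skint5 and Skint2. It lay inside the 95% exact intervals of Skint1 (3.39 to 5.55) and Skint10 (1.91 to 4.19), so its order relative to them is not resolved. Between Ttc39a and Slc5a9 in this ratio lay Rnf11, Faf1 and Spata6 before the cluster and Cmpk1, Stil, Pdzk1ip1, Cyp4b1 and Efcab14 after it. None of the 10 passed limma (1 at an unadjusted p under 0.05), edgeR or DESeq2, and their log2 changes ran from -0.69 to 1.26.

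The genes whose profile over the 4 libraries lay closest to the summed Skint profile were Fabp5, H2-D1, Slc6a19, Qsox1 and H2-K1, taken from the 5164 genes at or above the median level of 28.1 CPM. Likeness was the Euclidean distance between log2(CPM + 1) profiles centred on their means, which was 0.564 to 0.713 for these 5 and 2.21 for the median gene. Fabp5, an epidermal fatty acid binding protein on chromosome 3, had 78.2, 293, 157 and 327 CPM in Ctrl 1, Ctrl 2, cKO 1 and cKO 2. H2-D1 and H2-K1 encode classical MHC class I heavy chains on chromosome 17, where similar genes can share reads, and had 11, 62, 20 and 72 reads and 13, 27, 14 and 45 reads in that order. All 5 genes were lowest in Ctrl 1, which their choice by likeness to the Skint sum builds in, and none passed limma. Among the Skint members the distance to this sum ran from 0.716 for Skint10 to 3.47 for Skint2. Over only 4 libraries such a distance is a description.

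The coding sequences of the family were compared with those of other listed genes for GGACT, the letters most often found around N6-methyladenosine in mRNA. It occurred in 3 of the 8 longest coding sequences, namely Skint1, Skint2 and Skint9, while 78.3% of 10317 listed protein-coding genes held it at least once. That share was not matched to the family for coding length or for G and C content. The density was 0.916 per kb in Skint1, 1.67 in Skint2 and 2.09 in Skint9, beside a median of 1.08 over all genes. Skint3, Skint5, Skint6, Skint10 and Skint11 had none, including both giants. The sequences were poor in G and C, at 36.3 to 43.6% against a median of 53.0%, and untranslated regions were not searched. These are counts of letters and say nothing of whether a base is methylated.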

How the data were processed

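The authors deposited CPM values per gene for 4 ribosome profiling libraries, scaled to 1000000 over the 10327 listed genes. The submitters' processing notes name fastp, HISAT2 and HTSeq with GRCm38. The sources used here do not give versions, strand setting or the rule for multiply matching reads. Per the labels' protocols, lysates held cycloheximide and were digested with RNase I. The header calls the controls WT, and WT columns were read as the equally numbered Ctrl libraries. All values (100%) were whole multiples of 1 read (tolerance 1e-06), so reads were recovered. No listed gene was without a read in any library, and genes with none in some library are not analysed here. Symbols, positions and coding sequences came from GENCODE M21 for GRCm38 (10323 identifiers matched), and, with no protein table used, identity between members was computed on coding bases. limma 3.58.1 with a trend was fitted in R 4.3.3 to log2(CPM + 1) over genes with 1 CPM or more in 2 libraries (0 removed), with group as the only term, Benjamini-Hochberg adjustment over all genes and a threshold of 0.05. This scale understates changes of low genes. edgeR 4.0.16 and DESeq2 1.42.0 on recovered reads, other pseudocounts, filters, scalings, a replicate block and leaving out libraries were alternatives; the code was tested on simulated data. With 2 against 2 libraries an exact permutation test cannot go below 0.333 (two-sided). Named genes were every listed Skint gene, Mettl14, the 4 keratins of the ratios, the 5 nearest listed genes on each side and the 5 most alike genes. Of each marker list, up to 2 rises and 2 falls past the test were named, or else the 2 most abundant. Trdc, Col1a1, Pdgfra, Cdsn, Tgm1, Tgm3, Alox12b, Aloxe3 and Sprr2d were named after their values were seen. The members and lists were chosen with earlier results of these data known.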

Additional observations from a re-analysis of the deposited data

How the results depend on the processing

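The family's counts turned on single libraries. Of the Skint genes, 0 were called by limma under the other pseudocounts, filters and median centring, 0 by edgeR and DESeq2, and 0 to 6 by limma with 1 library left out (6 without Ctrl 2, where Ctrl 1 stands alone for its group and is assumed to vary like the others). With a replicate block 4 were called (Skint3, Skint6, Skint9 and Skint10), beside 257 higher and 582 lower in cKO among all 10327 genes. The labels, however, do not pair equal numbers. Replicate deviations correlated at 0.195 over all genes and 0.397 over those at or above the median CPM. With 1 library left out, log2 changes ran from -0.94 to 1.16 for Skint1, -1.31 to 0.90 for Skint2, 0.47 to 4.79 for Skint3, 0.42 to 0.97 for Skint5, -0.090 to 3.68 for Skint6, -0.15 to 3.81 for Skint9, -0.032 to 1.44 for Skint10 and -0.32 to 3.27 for Skint11, and 2 members, Skint3 and Skint5, kept their sign in all settings tried. Skint1 also reversed with edgeR on library totals (-0.11), and Skint2 with median centring (0.0060), edgeR with TMM (0.19) and DESeq2 (0.27); the cause was not tested. The ratio of summed Skint CPM was 1.52 to 1.85 across scalings. Over all genes 38 were higher and 31 lower, against 22 and 12 with a minimum of 5 CPM, 105 and 8 after median centring, 163 and 13 with edgeR and TMM, 62 and 56 with edgeR on library totals, 83 and 4 with DESeq2, 257 and 582 with the replicate block, and 0 to 104 and 0 to 44 with 1 library left out. The distinct share ran from 82.8% (Skint6) to 98.8% (Skint1) with windows of 25 bases and from 91.1% (Skint6) to 99.9% (Skint11) with 35, and the search of all transcripts, chosen after seeing the data, lowered it most for Skint11 (79.0%) and Skint2 (83.9%). Depth limits Skint3 and Skint11 most, with 3 and 2 reads in Ctrl 1.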
